A study of Arabidopsis thaliana with 8 samples.

Results

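The KISS ME DEADLY (KMD) genes of Arabidopsis thaliana code for F-box proteins with Kelch repeats. They were examined here for peaks of the bZIP transcription factor GBF2 in 3 deposited peak lists. The group has 4 genes: KMD1 (AT1G80440), KMD2 (AT1G15670), KMD3 (AT2G44130) and KMD4 (AT3G59940). Any peak whose gene identifier in the files was that of a member was taken, which gave 4 of the 1589 peaks of the 3 lists. The group was chosen from the peak scores, because KMD1 and KMD2 lay among the 10 highest-scoring peaks for each treatment. Their presence, scores and ranks are therefore a description with no test.

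The chromatin came from whole Columbia (Col-0) seedlings with the transgene pGBF2:GBF2-Ypet, in which the GBF2 promoter drives GBF2 joined to the fluorescent protein Ypet. All groups carried it. At 5 days of age, seedlings were placed for 6 h in medium with 0.5 µg/mL tunicamycin, which blocks N-glycosylation and so stresses the endoplasmic reticulum, or with DMSO alone as the mock treatment. Chromatin was precipitated with an antibody to GFP, and 2 such libraries and 2 input libraries without antibody were made for each treatment, 8 in all. The authors' lists hold 767 peaks for tunicamycin, 320 for DMSO, and 502 set apart as specific to tunicamycin. The files give 1 score per peak and no values per library, so neither sequencing depth nor replicate error is known, and no difference between treatments could be tested. Scores order the peaks of a single list and are not a measure of change between lists. Whether the tunicamycin list is longer because of deeper sequencing was not tested.

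F-box proteins are the part of an SCF ubiquitin ligase that holds the substrate, and Kelch repeats form the surface that binds it. KMD proteins bring about the breakdown of type-B response regulators, the transcription factors that carry out the cytokinin response. They also act on phenylalanine ammonia-lyase, the entry enzyme of the phenylpropanoid pathway that leads to lignin and flavonoids. GBF2 belongs to the G-box factors, which bind DNA at a CACGTG core and are known for their part in responses to light, abscisic acid and stress.

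KMD1 and KMD2 each had a single, strong GBF2 peak under tunicamycin and a single, strong one under DMSO. KMD3 and KMD4 had none in any list. Thus 2 of the 4 genes had a tunicamycin peak, where 2.27% of the 27444 protein-coding nuclear genes had one. The same 2 of 4 had a DMSO peak, against 0.849% of protein-coding genes. No KMD gene was in the authors' specific list, which took in 1.52% of protein-coding genes. How that list was made is not given in the labels or headers, and 29 of its 502 peaks overlap a DMSO peak, among them those of CYP86A2 (5.82) and HSP60-3A (5.56). Absence from it is therefore not the same as having a DMSO peak. Because KMD1 and KMD2 entered the group through their peaks, nothing was read from these counts.

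At KMD1 the tunicamycin peak scored 6.56 and was at place 4 of 767, so that 99.5% of the list scored below it. It ran from 30241482 to 30243428 on chromosome 1 (TAIR10 coordinates, used throughout), a width of 1947 bp. The DMSO peak of KMD1 scored 6.25 and took place 8 of 320, with 97.5% of the list below it. It lay at 30241724 to 30243059 and was 1336 bp wide. Both peaks were well above the middle of their lists, whose median scores were 2.47 for tunicamycin and 2.96 for DMSO.

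At KMD2 the tunicamycin peak scored 5.58, at place 8 of 767, with 99.0% of the list below it. It spanned 5390056 to 5391462 on chromosome 1, or 1407 bp. The DMSO peak of KMD2 scored 6.27, at place 7 of 320, and spanned 5390055 to 5391614, or 1560 bp. Of the DMSO list 97.8% scored below it. The KMD2 peaks were thus also among the strongest of their own lists, which differ in length and are not compared by rank.

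**Figure D1:**
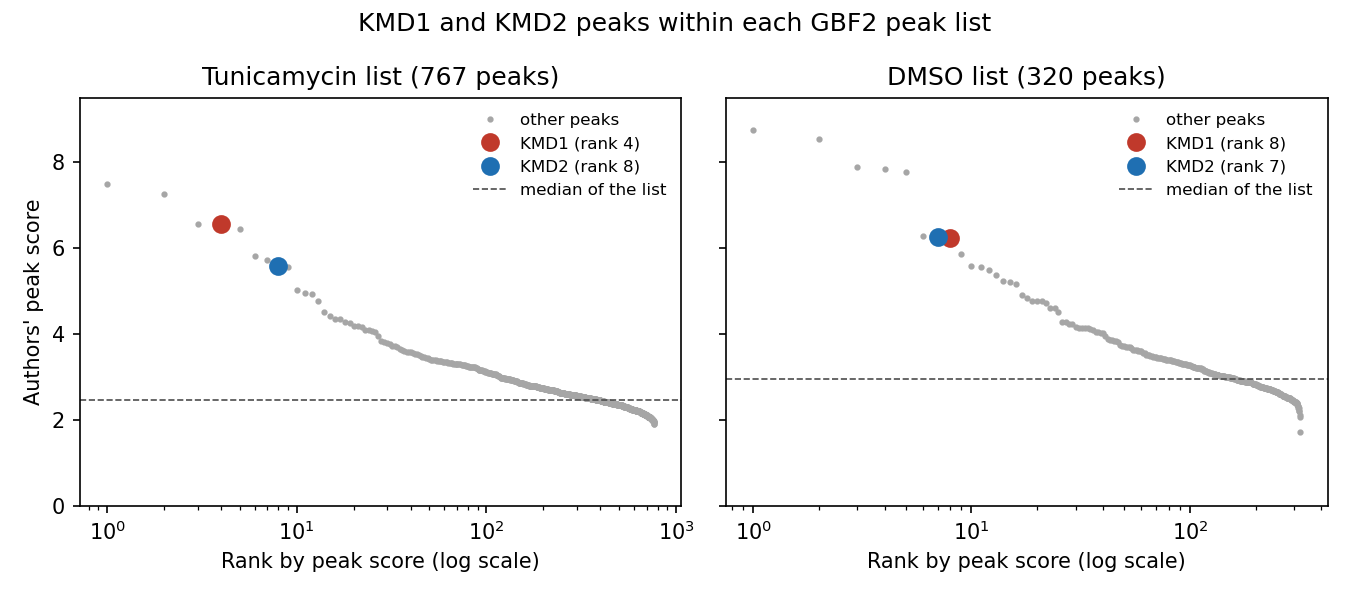
Authors' peak score (vertical axis) against rank by score (horizontal axis, log scale) for each peak of the tunicamycin list (left) and the DMSO list (right), with KMD1 in red, KMD2 in blue and the median of the list as a dashed line. KMD1 and KMD2 lie at places 4 and 8 under tunicamycin, and at places 8 and 7 under DMSO, where their points nearly coincide.

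The order of the pair differed between lists. Under tunicamycin KMD1 scored 0.981 more than KMD2, and 3 peaks lay between them. These belonged to the pseudogene AT1G42420 (6.44), CYP86A2 (5.82) and CYP86A7 (5.72), the last 2 being fatty acid hydroxylase genes. Under DMSO the pair held adjacent places, with KMD1 0.0178 below KMD2. Directly above KMD1 in the tunicamycin list was another fatty acid hydroxylase gene, CYP86A4 (6.57), and directly below KMD2 was the chaperonin gene HSP60-3A (5.56). In the DMSO list the gene above the pair was ADNT1 (6.29), which codes for a mitochondrial adenine nucleotide carrier, and the gene below it was AT3G03790 (5.86).

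A set of 8 genes, KMD1 and KMD2 included, had a peak among the 10 strongest of both lists. Ordered by score within these 8, KMD1 was at place 4 under tunicamycin and at place 7 under DMSO. KMD2 was at place 6 in each. HSP60-3A was at place 7 of the 8 under tunicamycin and at place 3 under DMSO. These orders rest on a single value per peak, have no error and are not a measure of change between treatments.

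The genes whose places in both lists were nearest to those of KMD1 were KMD2, AT3G03790 and CYP86A4, out of 256 genes with a peak in both. Nearness was the distance between places expressed as percentiles of the list, and it was 0.608, 0.842 and 0.947 percentile points for these 3. From KMD2 the same 3 places went to KMD1 (0.608), AT3G03790 (0.677) and CYP86A4 (0.903). Each KMD gene was thus the nearest to the other by this measure, which uses the ranks that chose them.

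The extent of the peaks, which the scores do not fix, set KMD1 and KMD2 apart. At KMD1 the tunicamycin peak contained the whole DMSO peak and reached 242 bp farther on the side of lower coordinates and 369 bp farther on the other. KMD1 lies on the sense strand in the authors' files, so the 242 bp are upstream. The KMD1 peak was thereby 611 bp wider under tunicamycin, at 1.46 times the DMSO width, and 68.6% of it was covered by the DMSO peak. At KMD2 the DMSO peak contained the whole tunicamycin peak. The starts of the KMD2 peaks differed by 1 bp, and the tunicamycin peak ended 152 bp earlier, at 0.902 times the DMSO width. KMD2 also lies on the sense strand, so its 2 peaks shared their upstream edge.

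**Figure D2:**
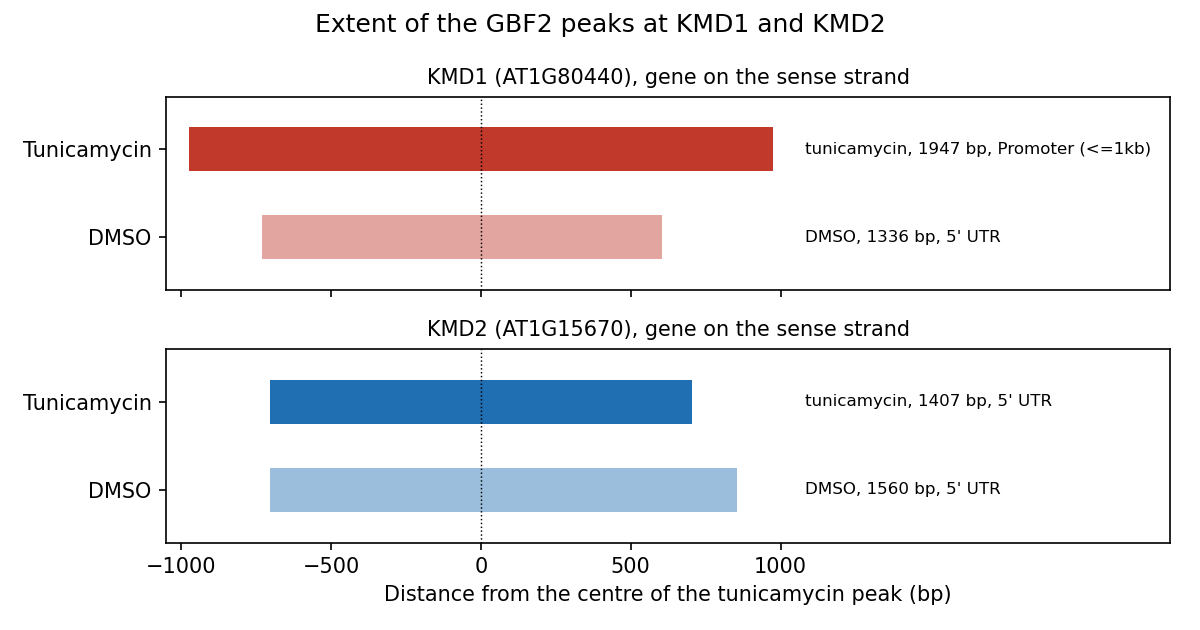
Bars show the extent of the KMD1 peaks (red, upper panel) and the KMD2 peaks (blue, lower panel), in bp from the centre of the tunicamycin peak of the same gene, with tunicamycin (dark) above DMSO (pale). The tunicamycin peak of KMD1 (1947 bp) exceeds the DMSO peak (1336 bp) on both sides, whereas the KMD2 peaks (1407 and 1560 bp) start together and differ at the downstream end.

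The KMD1 and KMD2 peaks were 2 of the 277 tunicamycin peaks, or 36.1% of the list, that shared 1 bp or more with a DMSO peak. In 270 pairs the overlapping peaks were given to the same gene. Across these the median ratio of tunicamycin to DMSO width was 1.02, with quartiles of 0.940 and 1.12, and 153 pairs were wider under tunicamycin. Only 16 of the 270 pairs had a higher ratio than KMD1, whereas 215 had a higher ratio than KMD2. Peak centres differed by 63.5 bp at KMD1 and by 75.5 bp in the opposite direction at KMD2 (-75.5 bp). The median size of such a shift over the 270 pairs was 41.3 bp (upper quartile 105 bp), and 172 pairs shifted less than KMD1 and 177 less than KMD2. Peak edges are set by the peak caller and vary with read depth, and the part of depth in the wider KMD1 peak was not tested.

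Among the 8 genes in the 10 strongest of both lists, KMD1 had the highest ratio of tunicamycin to DMSO width, at 1.46. The next were AT3G03790 (1.07) and the G-box factor gene GBF3 (1.07). The lowest was the pseudogene AT1G42420, at 0.681, and KMD2 was next to it. CYP86A8 and HSP60-3A, at 0.998 and 0.997, had peaks of nearly the same width under both treatments.

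**Figure D3:**
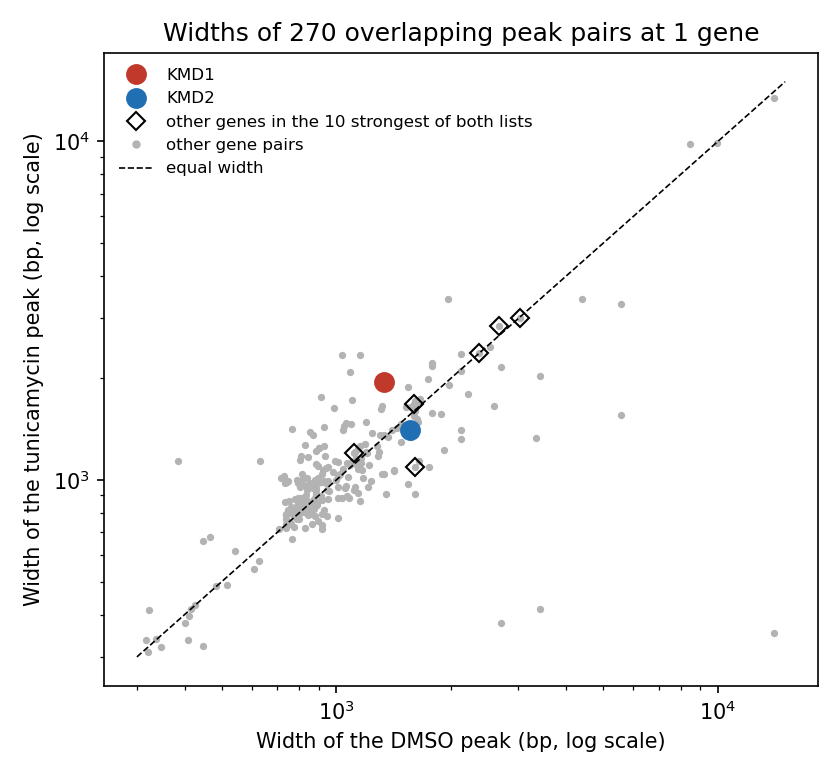
Width of the tunicamycin peak (vertical axis) against width of the overlapping DMSO peak (horizontal axis), both in bp on log scales, for 270 pairs given to the same gene; the dashed line marks equal widths. KMD1 (red) lies above the line and KMD2 (blue) just below it, while the diamonds mark the other genes among the 10 strongest of both lists.

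By width the KMD peaks took lower places than by score. KMD1 was place 27 of 767 by width under tunicamycin and place 57 of 320 under DMSO. KMD2 was place 95 under tunicamycin and place 44 under DMSO. Still, 96.5% of tunicamycin peaks were narrower than that of KMD1 and 87.6% were narrower than that of KMD2. In the DMSO list 82.2% were narrower than the KMD1 peak and 86.3% narrower than the KMD2 peak. Width and score tended to rise together, with Spearman's rho of 0.36 across the 767 tunicamycin peaks and 0.41 across the 320 DMSO peaks. Each peak gives both values from the same reads. The 10 strongest tunicamycin peaks were 1094 to 3011 bp wide, all above the median of 878 bp. In the DMSO list the 10 strongest were 1114 to 13432 bp wide, all above its median of 884 bp. KMD1 and KMD2 were chosen for high scores, so nothing was read from these places by width.

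By the position classes in the authors' files, 3 of the 4 KMD peaks were in the 5′ UTR class, which is rare. It held 10 of 767 tunicamycin peaks (1.30%) and 4 of 320 DMSO peaks (1.25%). In the tunicamycin list KMD2 was at place 2 of the 10 in this class by score, after CYP86A8 (7.49), and the RING finger gene ATL5 came next, with a score of 3.31. Of the 4 DMSO peaks in it, KMD2 and KMD1 were at places 2 and 3 by score, again after CYP86A8 (8.54) and before RHD3 (3.46), a gene needed for the shape of the endoplasmic reticulum and for root hair growth.

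The tunicamycin peak of KMD1, in contrast, fell into the class of promoters within 1 kb, where it was at place 2 of 583 by score. The class differed between treatments in 16 of the 270 pairs (5.93%), and KMD1 was the only pair of the 270 with a peak of that promoter class under tunicamycin and a 5′ UTR peak under DMSO. In these 16 pairs the starts differed by a median of 279 bp and the ends by 330 bp, compared with 37 bp and 47 bp in the 254 pairs that kept their class. At KMD1 the start differed by 242 bp and the end by 369 bp. The change of class at KMD1 thus came with a change in the extent of the peak. A class names where a peak falls by the authors' assignment, not where GBF2 touches the DNA. Larger shifts in pairs that change class are therefore partly built in. Wider tunicamycin peaks were not the rule among the 16 pairs, since 8 were wider and the median width ratio was 0.991.

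KMD1 and KMD2 lie far apart on chromosome 1, with 24.9 Mb between their tunicamycin peaks. By score KMD1 was at place 2 and KMD2 at place 5 of the 192 tunicamycin peaks of chromosome 1. Among its 84 DMSO peaks, KMD1 was at place 4 and KMD2 at place 3. KMD1 had the last peak of chromosome 1 in both lists, with none at the 67 genes that follow it in the TAIR10.1 gene table. On the other side, the next tunicamycin peak was 23802 bp away at AT1G80380 (score 2.41), a peak in the specific list, and the next DMSO peak was 321666 bp away at GAPCP-1 (3.24), a gene for a plastid glyceraldehyde-3-phosphate dehydrogenase.

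Around KMD2, on the side of higher coordinates both lists had a peak at TPL, the gene of the TOPLESS corepressor, 29332 bp away under tunicamycin (score 2.59) and 29317 bp away under DMSO (2.76). On the other side the nearest tunicamycin peak was 91616 bp away at AT1G15405 (2.24). The DMSO list had a nearer one there, 8744 bp away at the transfer RNA gene AT1G15650, with a score of 2.39 at place 308 of 320.

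KMD3 and KMD4 had no score in any list. The lowest scores listed were 1.89 for tunicamycin and 1.71 for DMSO, and the threshold used to call peaks is not given in the sources used here. GBF2 binding at KMD3 or KMD4 below that threshold cannot be told apart from no binding. Since the files give a single gene to each peak, the neighbours were examined as well. In the order of the gene table, none of the 10 genes on either side of KMD3 had a peak in either list, its direct neighbours AT2G44140 and ASHH3 included. The nearest tunicamycin peaks lay at SSI2, 53 genes before KMD3, and at AT2G44430, 35 genes after it.

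KMD4 had a peak 4 genes away, at the transfer RNA gene AT3G59923 on chromosome 3, in both lists. The tunicamycin peak there spanned 22138349 to 22139242, with a score of 2.57 at place 297 of 767. The DMSO peak spanned 22138331 to 22139241, with a score of 2.45 at place 297 of 320. The direct neighbours of KMD4, the long non-coding RNA genes AT3G09265 and AT3G09275, had no peak, nor did any other of the 10 genes on each side. Likewise, no direct neighbour of KMD1 (AT1G09973 and AT1G80450) or KMD2 (CENP-C and AT1G15680) had a peak.

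**Figure D4:**
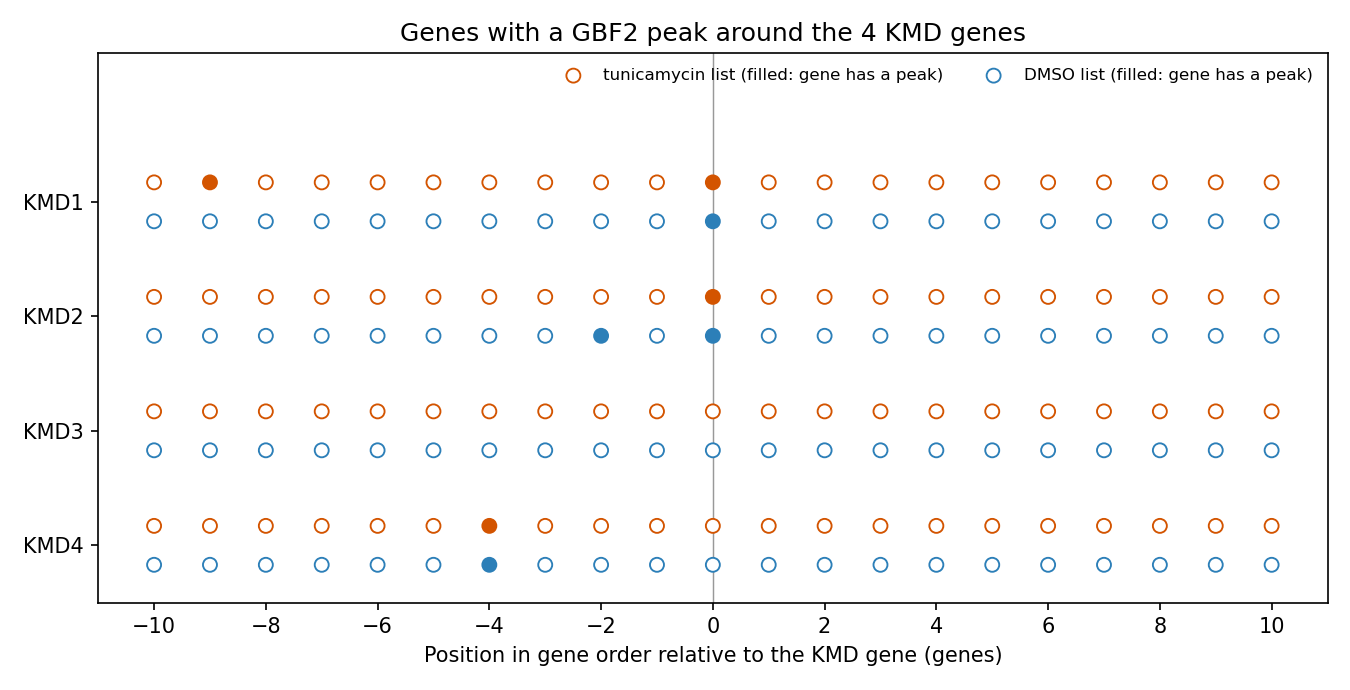
Each circle is a gene, placed by its order relative to KMD1, KMD2, KMD3 or KMD4 (position 0), from 10 genes before to 10 genes after; filled circles have a peak in the tunicamycin list (orange, upper row) or the DMSO list (blue, lower row). KMD1 and KMD2 are filled in both rows and KMD3 and KMD4 in neither, and the other filled circles are AT1G80380, AT1G15650 and AT3G59923.

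A further 96 genes were examined in the same lists: 58 of cytokinin metabolism, signalling and response, 24 of phenylpropanoid and flavonoid synthesis, 4 of SCF core subunits and 10 of other Kelch proteins. Of these, 6 had a tunicamycin peak (6.25%) and 0 had a DMSO peak, against the 2.27% and 0.849% of all protein-coding genes given above. The lists were chosen with earlier results of these data known, so nothing was read from these shares. All 6 were in the specific list, which is common: 622 protein-coding genes had a tunicamycin peak and 417 were in the specific list. Their tunicamycin scores were 2.24 to 2.70, at places 213 to 588 of 767, and 5 of the 6 lay in the middle 50% of the list. KMD1 (6.56) and KMD2 (5.58) scored far higher, but they were chosen for their high scores, so nothing was read from this gap.

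None of the 11 type-B response regulator genes, the family to which the cytokinin substrates of KMD proteins belong, was given a peak in any list. ARR1, ARR10 and ARR12, which carry much of the cytokinin response, were among them. None of the 4 phenylalanine ammonia-lyase genes PAL1 to PAL4 had a peak either, nor did the 7 flavonoid enzyme genes or the 4 genes of SCF core subunits (ASK1, ASK2, CUL1 and RBX1). As 2.27% of all protein-coding genes had a tunicamycin peak, lists this short would mostly hold none, and nothing was read from these absences. Of the other 13 phenylpropanoid genes CAD5 alone had a peak. It codes for a cinnamyl alcohol dehydrogenase of lignin synthesis, and its tunicamycin score was 2.41. As each peak is given to a single gene, direct neighbours were examined here too. Of the listed genes without a peak, 6 have a direct neighbour with a tunicamycin peak, namely ARR18 and ARR20 of the type-B genes, ARR17, AHK3, IPT1 and IPT3. The share of all genes with such a neighbour was not determined, so nothing was read from this count.

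Of the cytokinin genes with a tunicamycin peak, CRF3 (2.70) and CRF4 (2.42) were 2 of the 6 listed cytokinin response factor genes. The CRF3 peak spanned 21619146 to 21620063 on chromosome 5 and the CRF4 peak 13911007 to 13911814 on chromosome 4. ARR8 (2.24), a type-A response regulator that dampens cytokinin signalling, was 1 of 10 genes of its kind, and IPT5 (2.34), a cytokinin synthesis gene, was 1 of 22 genes of synthesis and breakdown. None of the 9 receptor and phosphotransfer genes had a peak. Over all protein-coding genes 2.27% had a tunicamycin peak. These lists are short and were chosen with earlier results of these data known, so nothing was read from their counts. The peak at IPT5 was in the 3′ UTR class, and the other 5 were in the class of promoters within 1 kb.

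Among 10 other Kelch genes FKF1 alone had a peak, with a tunicamycin score of 2.52 at 25507876 to 25508815 on chromosome 1. FKF1 is an F-box protein with a blue-light receptor domain that acts in the photoperiodic control of flowering. Its close relatives ZTL and LKP2 had no peak. As 2.27% of all protein-coding genes had a tunicamycin peak and the list is short, nothing was read from the single peak. None of the other Kelch genes listed had a DMSO peak, where 0.849% of all protein-coding genes had one. Since KMD1 and KMD2 were chosen for strong peaks under both treatments, nothing was read from this difference.

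**Figure D5:**
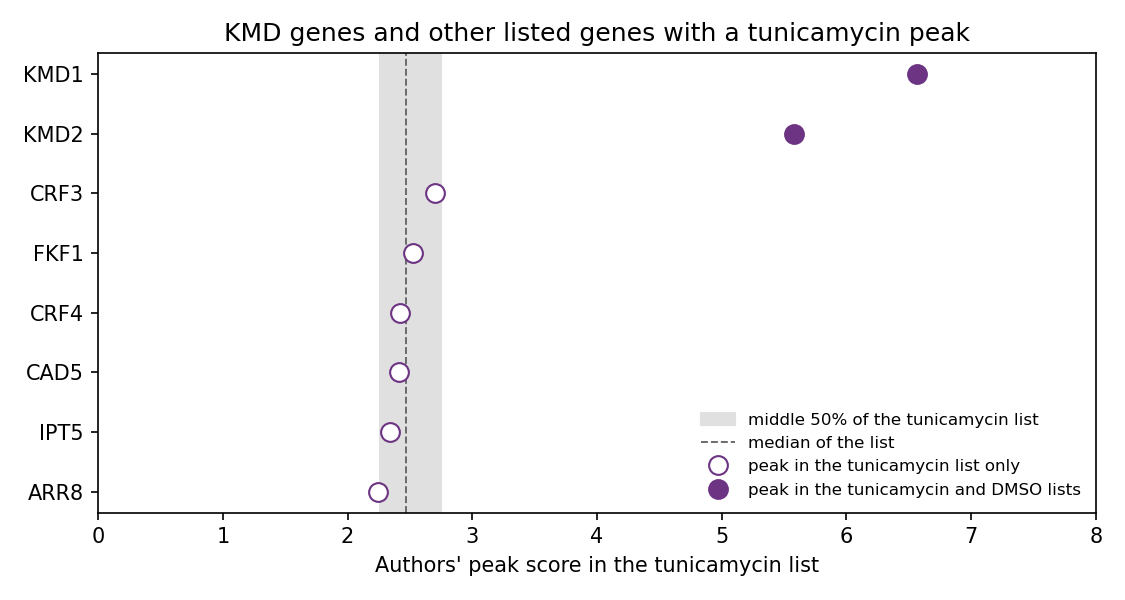
Authors' peak score in the tunicamycin list for KMD1, KMD2 and the 6 other listed genes with a tunicamycin peak; filled points also have a DMSO peak, open points do not, and the grey band with the dashed line gives the middle 50% and the median of the list. KMD1 (6.56) and KMD2 (5.58), which were chosen for their high scores, lie far to the right of the other 6, which score 2.24 to 2.70.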

How the data were processed

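Per the submitters' processing notes, MACS2 2.1.2, Bowtie 1.1.2, SAMtools 1.8, cutadapt 1.8.1 and FastQC 0.11.5 were used, with the build TAIR10. Settings, pooling of replicates and handling of reads that match several places are not stated in the labels or headers. For each peak the authors deposited a score, which the header names signalValue, and a width in bp. Each list is taken as 1 value per peak for its treatment. From these, ranks, overlaps (at least 1 bp), peak extents and distances were computed with matplotlib 3.10.9, SciPy 1.17.1, numpy 2.4.6 and pandas 2.3.3 under Python 3.11.15. The overlap code was tested on simulated data.

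Gene names and gene order came from a RefSeq table of TAIR10.1, in which 727 of 744 tunicamycin, 285 of 292 DMSO and 482 of 492 specific identifiers matched. Its coordinates were used only to put the genes in order. The KMD genes and the pathway lists were chosen with earlier results of these data known, so no test was run. Named genes are the members, listed genes with a peak, adjacent ranks, nearest ranks and neighbours. Listed genes without a peak, the nearest peaks, the 8 genes strong in both lists and the 5′ UTR class were added. The Kelch list adds genes with that word among their synonyms. Promoter motifs and protein identity were planned but not analysed here, since no sequences were used.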

Additional observations from a re-analysis of the deposited data

How the results depend on the processing

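The counts of KMD genes with a tunicamycin peak, a DMSO peak and a shared peak stayed at 2, and that in the specific list at 0, with the strongest 50% of each list. This was fixed in advance, since KMD1 and KMD2 were chosen among the 10 highest-scoring peaks for each treatment. The full specific list holds no KMD gene. The shared count also stayed at 2 with an overlap of at least 50% of the shorter peak and with midpoints within 200 bp. Taking peaks without a DMSO overlap in place of the authors' specific list also gave 0. These 3 settings could not change the counts. At each gene 1 peak contains the other, and the peak centres differ by 63.5 bp at KMD1 and 75.5 bp at KMD2. With the promoter class of up to 1 kb alone, the tunicamycin count was 1 (KMD1), the DMSO count 0 and the shared count 0, by construction, since the other KMD peaks are in the 5′ UTR class. At protein-coding genes alone, each KMD peak kept its place or gained 1. Leaving out a replicate was not possible with lists that hold no values per library, nor was any paired analysis. The planned comparison of CACGTG with its ACGT core in promoters was not run.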
